A study of Homo sapiens with 6 samples.

Results

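The nuclear-encoded subunits of the oxidative phosphorylation complexes were described in sorted cells of 2 human breast cancer lines. They are 59 genes of the 18795 kept in the deposited table, found by matching Entrez Gene IDs to a list of subunits: 25 of complex I, 4 of complex II, 9 of complex III, 11 of complex IV and 10 of complex V. All 59 were in the table and passed the filter of a mean of 1 FPKM, as did 12454 genes in all. FPKM scales fragments by the length of the transcript and by the library, so that levels of different genes can be compared per length. RNA was sequenced from MDA-MB-468 and HCC70, both basal-like breast cancer lines. Cells were fixed in cold methanol, stained and sorted into cells positive for keratin 18 and keratin 14 (K18+K14+), for keratin 18 and vimentin (K18+Vim+), or for keratin 18 without the other antigens in the label (K18+). Keratin 18 is a luminal keratin, keratin 14 a basal one, and vimentin a mesenchymal filament. No group carried a genetic change or a drug treatment in the labels, and all 6 libraries came from methanol-fixed cells. MDA-MB-468 was grown in Leibovitz L15, a medium with galactose in place of glucose, and HCC70 in RPMI, so that line and medium cannot be told apart. Each population gave 1 library per line. P-values below therefore measure how far the lines, or the populations, disagree, and not the spread between cultures.

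Oxidative phosphorylation takes place in the inner mitochondrial membrane. Complex I accepts electrons from NADH and complex II from succinate, complex III passes them to cytochrome c, and complex IV passes them to oxygen. Complexes I, III and IV pump protons, and complex V, the ATP synthase, uses the proton gradient to make ATP. Complexes I, III, IV and V also contain subunits made from mitochondrial DNA, whereas complex II, which is also an enzyme of the citric acid cycle, is encoded by nuclear genes alone. None of 15 listed mitochondrially encoded genes was matched in the table, so they were not analysed here.

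Many promoters of respiratory subunit genes are known to carry sites for NRF1 and for ETS-family factors such as GABP. RefSeq start-site windows of 300 bases (build GRCh38.p14, 250 bases before the start and 50 after) were matched to 48 of the 59 members, with 52 windows. The NRF1 letters, GCGCA, any base and GCGC, occurred on either strand in 12 of these windows (23.1%), against 9.68% of the windows of all genes tested and 5.78% of all windows. The ETS letters CCGGAAG occurred in 18 member windows (34.6%), against 16.7% and 10.3%. The YY1 letters AAGATGGC occurred in 9 (17.3%), against 4.64% and 2.89%. The TATA box letters TATAAA occurred in 4 (7.69%), against 6.51% and 11.5%. No NRF1 match overlapped an ETS match in these windows, and no ETS match a YY1 match. Letters of both NRF1 and ETS occurred in 3 members (ATP5ME, SDHD and UQCR11), letters of either in 27, and 21 of the matched members had neither. Such matches describe the letters of the window and are not evidence of binding. The 250 bases before the start are printed for 5 members described below, 5′ to 3′ on the strand of the gene, with NRF1 and ETS matches in capitals. COX6B1 (chr19:35648073-35648322, plus strand) and ATP5PO (chr21:33915805-33916054, minus strand) stand for members that were high in MDA-MB-468, and UQCR11 (chr19:1605463-1605712, minus strand) for the window with the most such matches printed here. SDHD (chr11:112086623-112086872, plus strand) and UQCRC2 (chr16:21953111-21953360, plus strand) stand for members with lower values in K18+K14+ than in K18+ cells of both lines. In HCC70 UQCRC2 was nearly level, with a log2 ratio of -0.04 where the median of all genes tested was -0.15.
COX6B1: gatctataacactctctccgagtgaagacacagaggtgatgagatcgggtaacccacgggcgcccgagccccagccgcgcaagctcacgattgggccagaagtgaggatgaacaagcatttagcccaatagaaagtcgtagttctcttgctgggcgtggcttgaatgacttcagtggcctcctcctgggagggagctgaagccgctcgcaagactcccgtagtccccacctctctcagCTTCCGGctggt
ATP5PO: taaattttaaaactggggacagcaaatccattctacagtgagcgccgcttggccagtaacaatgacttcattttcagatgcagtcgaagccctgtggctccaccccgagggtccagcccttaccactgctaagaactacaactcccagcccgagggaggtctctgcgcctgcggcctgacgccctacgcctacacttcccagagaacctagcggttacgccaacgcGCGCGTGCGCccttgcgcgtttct
UQCR11: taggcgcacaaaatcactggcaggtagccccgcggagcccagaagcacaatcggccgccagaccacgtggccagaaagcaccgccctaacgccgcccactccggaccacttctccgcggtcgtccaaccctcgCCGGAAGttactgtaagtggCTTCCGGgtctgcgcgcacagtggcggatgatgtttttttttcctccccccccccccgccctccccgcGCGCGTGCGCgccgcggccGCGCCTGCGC
SDHD: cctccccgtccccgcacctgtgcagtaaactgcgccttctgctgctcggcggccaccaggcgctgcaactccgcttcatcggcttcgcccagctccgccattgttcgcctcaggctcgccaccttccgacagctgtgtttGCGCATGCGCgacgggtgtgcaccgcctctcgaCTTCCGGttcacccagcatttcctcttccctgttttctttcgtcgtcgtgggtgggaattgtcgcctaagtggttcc
UQCRC2: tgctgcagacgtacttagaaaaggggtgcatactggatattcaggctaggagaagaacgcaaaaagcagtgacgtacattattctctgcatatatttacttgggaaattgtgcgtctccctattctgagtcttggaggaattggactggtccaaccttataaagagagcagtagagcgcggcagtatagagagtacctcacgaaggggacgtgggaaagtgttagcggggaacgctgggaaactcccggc
COX6B1 has 1 ETS match, ATP5PO 1 NRF1 match, UQCR11 2 of each, SDHD 1 of each, and UQCRC2 none of either. Of the 3 members with both motifs, SDHD had lower and UQCR11 higher values in K18+K14+ than in K18+ cells of both lines. ATP5ME had log2 ratios of 2.16 in MDA-MB-468 and -0.15 in HCC70. A relation between motif matches and values over the members was not tested.

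KRT14 and VIM followed the sort labels, while in 1 library KRT18 was low and the line genes did not follow the line. KRT14 and VIM were highest in the populations sorted for them in each line. MDA-MB-468 is known to lack SMAD4 and RB1 and to carry an amplified EGFR. SMAD4 stood at 0.31 and 0.566 FPKM in K18+K14+ and K18+ cells of MDA-MB-468, and RB1 at 0.269 and 0.307 FPKM. In the K18+Vim+ library labelled as MDA-MB-468, SMAD4 stood at 5.19 and RB1 at 6.68 FPKM, and EGFR at 10.4 FPKM against 70.7 and 153 FPKM in K18+K14+ and K18+ cells of that line. KRT18, the antigen shared by the 3 populations, stood at 67.7 FPKM there against 569 and 464 FPKM. That library is therefore named by its label throughout, and results are also given without it. Pairs of libraries that use it are given as MDA-MB-468 as labelled. Among 11 marker genes of immune cells, fibroblasts, endothelium and erythroid cells, COL1A1 lay between 2.78 and 9.1 FPKM. The highest value of the other 10 was 1.75 FPKM, for DCN in K18+K14+ cells of MDA-MB-468, and PECAM1 was at the floor of 0.1 FPKM in all 6 libraries. The 100 highest genes took 36.3%, 33.5% and 25.0% of all FPKM summed in MDA-MB-468 (K18+K14+, labelled K18+Vim+ and K18+), against 22.5% to 23.9% in HCC70.

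Subunit mRNAs were among the most abundant in every library. By mean FPKM, 45 of the 59 stood at or above the 95th percentile of all genes and 54 at or above the 90th. Their median was 401 FPKM in the K18+K14+ library of MDA-MB-468, 329 FPKM in the K18+Vim+ library labelled as MDA-MB-468 and 199 FPKM in the K18+ library of MDA-MB-468. In HCC70 it was 159, 140 and 151 FPKM in the K18+K14+, K18+Vim+ and K18+ libraries. The 3 HCC70 libraries were thus close to each other, and the MDA-MB-468 libraries were both higher and further apart. Ranked by level within a library, the 59 genes stood in nearly the same order in the HCC70 libraries (Spearman 0.973 to 0.980 across the 59 genes, which are not independent). Between the MDA-MB-468 libraries the same measure was 0.898 for K18+K14+ and K18+, 0.827 for labelled K18+Vim+ and K18+, and 0.771 for labelled K18+Vim+ and K18+K14+. All genes tested had the same order of pairs by another measure, the Pearson correlation of log2(FPKM + 1). It was 0.967 to 0.978 within HCC70, and 0.919, 0.828 and 0.791 for the MDA-MB-468 pairs as listed. The pattern was thus not particular to the members.

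**Figure D1:**
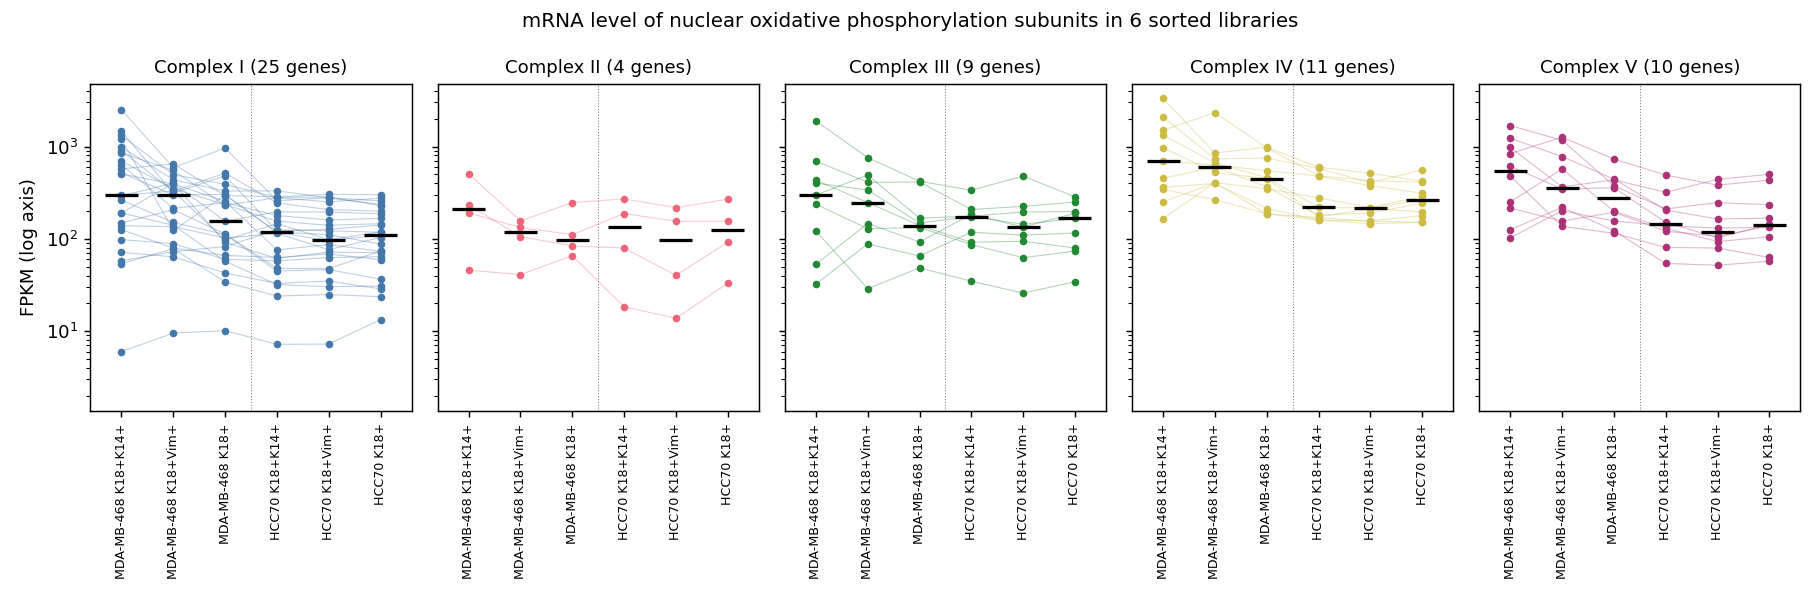
FPKM (log axis) of each subunit gene in the 6 libraries, by complex; points are genes, thin lines join a gene across libraries and black bars are medians. Complex IV had the highest median in every library, for example 694 FPKM in the K18+K14+ library of MDA-MB-468 and 264 FPKM in the HCC70 K18+ library, and NDUFS1 lay lowest of all members in each.

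Levels differed widely within a complex. In complex I the highest mean level was that of NDUFS5, a small accessory subunit of the membrane arm. It stood at 2505, 589 and 964 FPKM in MDA-MB-468 K18+K14+, labelled K18+Vim+ and K18+ cells, against 259, 277 and 235 FPKM in the HCC70 ones. NDUFS1, a core subunit that carries iron-sulphur clusters, was the lowest of all 59 at 6.0, 9.50 and 10.1 FPKM in MDA-MB-468, against 7.19, 7.23 and 13.3 FPKM in HCC70. The genes of complex II covered a narrower span. SDHA, the flavoprotein that oxidises succinate, stood at 504, 156 and 247 FPKM in MDA-MB-468 K18+K14+, labelled K18+Vim+ and K18+ cells, against 271, 218 and 269 FPKM in HCC70. SDHD, a membrane anchor, stood at 45.7, 41.0 and 65.5 FPKM in MDA-MB-468, against 18.3, 13.8 and 33.0 FPKM in HCC70. SDHD was thus highest in the K18+ library of each line, and SDHA was highest in K18+ cells of neither line.

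In complex III the highest was UQCRQ, a small accessory subunit, with 1893, 758 and 420 FPKM in the MDA-MB-468 libraries, against 337, 478 and 285 FPKM in HCC70, in the same order of populations. The lowest was UQCRFS1, the Rieske iron-sulphur protein, with 122, 28.8 and 48.4 FPKM in MDA-MB-468, against 34.8, 25.8 and 34.2 FPKM in HCC70. UQCRFS1 thus had its lowest value of each line in K18+Vim+ cells, and UQCRQ had its lowest in K18+ cells. In complex IV COX6B1, a subunit on the cytochrome c side of the enzyme, was highest with 3314, 851 and 982 FPKM in MDA-MB-468, against 598, 513 and 420 FPKM in HCC70. COX5B, a zinc-binding subunit, was lowest by mean with 343, 265 and 187 FPKM in MDA-MB-468, against 159, 146 and 151 FPKM in HCC70. For both, every MDA-MB-468 library lay above every HCC70 library. In complex V the catalytic beta subunit ATP5F1B was highest with 839, 1260 and 733 FPKM in MDA-MB-468, against 490, 381 and 433 FPKM in HCC70. ATP5MC3, one of several genes for the c subunit of the rotor ring, was lowest with 126, 219 and 122 FPKM in MDA-MB-468, against 54.0, 51.7 and 57.2 FPKM in HCC70. UQCRQ and COX6B1 peaked in the K18+K14+ library of MDA-MB-468, whereas ATP5F1B and ATP5MC3 peaked in the K18+Vim+ library labelled as MDA-MB-468.

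Summed over the 59 genes, the share of a library's FPKM was 4.86% in the K18+K14+ library of MDA-MB-468, 4.08% in the K18+Vim+ library labelled as MDA-MB-468 and 3.18% in the K18+ library of MDA-MB-468. In HCC70 the share was 2.17%, 2.02% and 2.01% in the K18+K14+, K18+Vim+ and K18+ libraries. A member was highest in the K18+K14+ library of MDA-MB-468 for 38 of the 59 genes (21.2% of all genes tested), in the one labelled K18+Vim+ for 16 (24.6%) and in its K18+ library for 1 (15.3%). It was highest in the K18+K14+ library of HCC70 for 2 (8.8%), in its K18+Vim+ library for 0 (9.93%) and in its K18+ library for 2 (20.1%). Complex II took the smallest part of the members' sum in all 6 libraries, between 1.89% in the K18+Vim+ library labelled as MDA-MB-468 and 5.36% in the HCC70 K18+ library. Complex I took 37.8% of the members' sum in the K18+K14+ library of MDA-MB-468, against 34.2% in the K18+ library of that line, and complex V took 17.5% against 19.2%. In these bulk libraries a change in the number of cells that express a gene and a change in RNA per cell cannot be told apart.

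**Figure D2:**
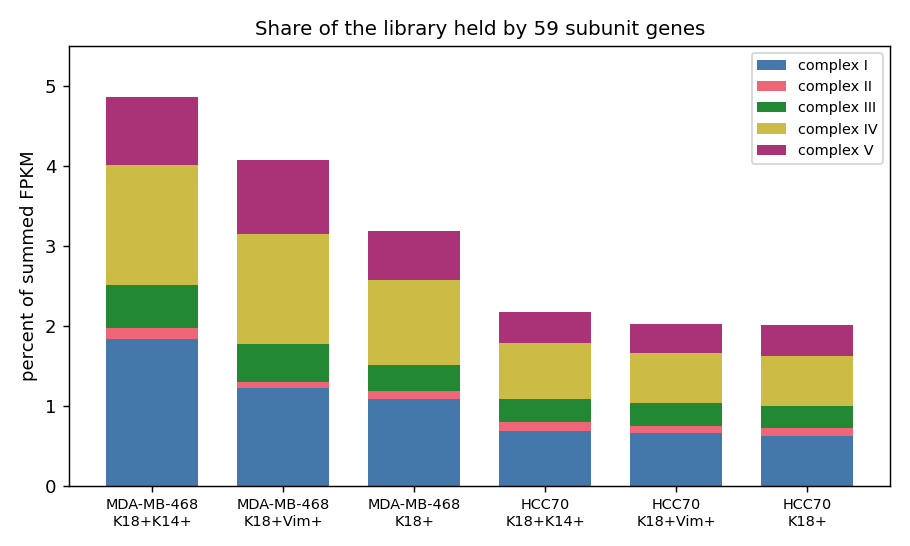
Percent of each library's summed FPKM that came from the 59 genes, stacked by complex, for MDA-MB-468 (left) and HCC70 (right). The bars stand between 3.18% and 4.86% in MDA-MB-468, above the 3 HCC70 bars at 2.01% to 2.17%.

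K18+K14+ cells were set against K18+ cells of the same line to find what accompanies keratin 14. Subunit genes had mostly higher values in K18+K14+ cells of MDA-MB-468 and nearly level ones in HCC70. The median ratio of K18+K14+ to K18+ was 1.88-fold over the 59 genes in MDA-MB-468 and 1.05-fold in HCC70. FPKM summed over all genes was 765161 against 511591 in MDA-MB-468 and 494335 against 507790 in HCC70. In MDA-MB-468 the summed FPKM of the members was thus 2.28-fold and their share of the library 1.53-fold. In HCC70 that share was 1.08-fold. The median log2 ratio of all genes tested was -0.17 in MDA-MB-468 and -0.15 in HCC70, and relative to it the members' median was 1.08 in MDA-MB-468 and 0.21 in HCC70. In MDA-MB-468 52 of the 59 had higher values in K18+K14+ cells (41.2% of all genes tested), and in HCC70 39 had (34.2% of all genes tested). Both lines gave a higher value for 36 members (20.2% of all genes tested) and a lower one for 4 (43.7%), while 19 had opposite signs. By limma over all genes none of the 59 passed the adjusted threshold (0.0% of all genes), with 0 members and 3.44% of all genes at an unadjusted p under 0.05, and the lowest adjusted p among the members was 0.855. The share of the 100 highest genes was also largest in the K18+K14+ library of MDA-MB-468, as given above, and its part in these ratios was not tested. The fitted relative median was 0.65, and it was 0.16 after quantile normalization and 0.24 after correction for transcript length. Leaving out both K18+Vim+ libraries cannot change it, because the fitted difference is the mean of the ratios within the 2 lines.

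Complex I had higher values in both lines for 18 of its 25 genes, with relative medians of 1.15 in MDA-MB-468 and 0.23 in HCC70. NDUFV2, a core subunit of the NADH-oxidising module, stood at 1192 FPKM in the K18+K14+ library of MDA-MB-468 against 298 FPKM in K18+ cells, and at 118 against 87.4 FPKM in HCC70. NDUFA13, an accessory subunit also known as GRIM-19, stood at 985 against 329 FPKM for MDA-MB-468 and at 331 against 257 FPKM for HCC70. NDUFS1 was the only gene of the complex with a lower value in K18+K14+ cells of both lines, at 6.0 against 10.1 FPKM (MDA-MB-468) and 7.19 against 13.3 FPKM (HCC70). Its fitted log2 difference was -0.74 ± 0.39 (SE, limma adjusted p = 0.855), and that of NDUFV2 was 1.21 ± 0.75 (limma adjusted p = 0.855). NDUFS1 thus lay lower by a like amount in both lines, with log2 ratios of -0.67 in MDA-MB-468 and -0.80 in HCC70, while NDUFV2 differed mostly in MDA-MB-468, with a log2 ratio of 0.43 in HCC70.

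Complex II was divided between its anchors. SDHC, a membrane anchor of the complex, stood at 234 FPKM in the K18+K14+ library of MDA-MB-468 against 83.8 FPKM in K18+ cells, and at 79.3 against 91.6 FPKM in HCC70. The other anchor, SDHD, stood at 45.7 against 65.5 FPKM for MDA-MB-468 and at 18.3 against 33.0 FPKM for HCC70, with a fitted log2 difference of -0.66 ± 0.39 (SE, limma adjusted p = 0.855). SDHC thus took opposite signs in the lines, and SDHD was lower in K18+K14+ cells of both. The relative median of the 4 genes was 1.07 in MDA-MB-468 and 0.05 in HCC70, and the HCC70 value turned to -0.09 with no filter, -0.11 after quantile normalization and -0.08 after length correction.

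In complex III UQCRQ stood at 1893 against 420 FPKM for MDA-MB-468 and at 337 against 285 FPKM for HCC70. CYC1, the haem protein cytochrome c1, stood at 32.3 FPKM in the K18+K14+ library of MDA-MB-468 against 65.1 FPKM in K18+ cells, and at 118 against 115 FPKM in HCC70. UQCRC2, a core protein of the complex, stood at 52.9 against 92.5 FPKM for MDA-MB-468 and at 184 against 189 FPKM for HCC70. Both lines gave higher values for 5 of the 9 genes, and UQCRC2 alone was lower in both. UQCR11, a small accessory subunit, stood at 431 against 139 FPKM for MDA-MB-468 and at 91.7 against 79.6 FPKM for HCC70.

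In complex IV COX6B1 stood at 3314 FPKM in the K18+K14+ library of MDA-MB-468 against 982 FPKM in K18+ cells, and at 598 against 420 FPKM in HCC70. Its log2 ratios were 1.75 in MDA-MB-468 and 0.51 in HCC70, and its fitted difference was 1.13 ± 0.58 (SE, limma adjusted p = 0.855). COX8A, a small membrane subunit, differed more in HCC70, with 694 against 546 FPKM in MDA-MB-468 and 480 against 311 FPKM in HCC70. NDUFA4, first assigned to complex I and later found in complex IV, stood at 166 against 348 FPKM for MDA-MB-468 and at 278 against 289 FPKM for HCC70. It was the only one of the 11 genes of complex IV with lower values in both lines, and 6 had higher values in both. NDUFA4 was nearly level in HCC70, with a log2 ratio of -0.05 where the median of all genes tested was -0.15.

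Complex V had no gene with lower values in both lines and 5 of 10 with higher values in both. ATP5F1D, the delta subunit of the central stalk, stood at 479 against 115 FPKM for MDA-MB-468 and at 80.5 against 62.7 FPKM for HCC70. ATP5F1A, the alpha subunit beside the catalytic sites, stood at 103 against 156 FPKM for MDA-MB-468 and at 138 against 133 FPKM for HCC70. Members of the same enzyme thus lay apart in MDA-MB-468, where ATP5F1D had a log2 ratio of 2.05 and ATP5F1A one of -0.60. The relative median of the complex in MDA-MB-468 was 0.72, the lowest of the 5 complexes, and it turned to -0.10 after quantile normalization.

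**Figure D3:**
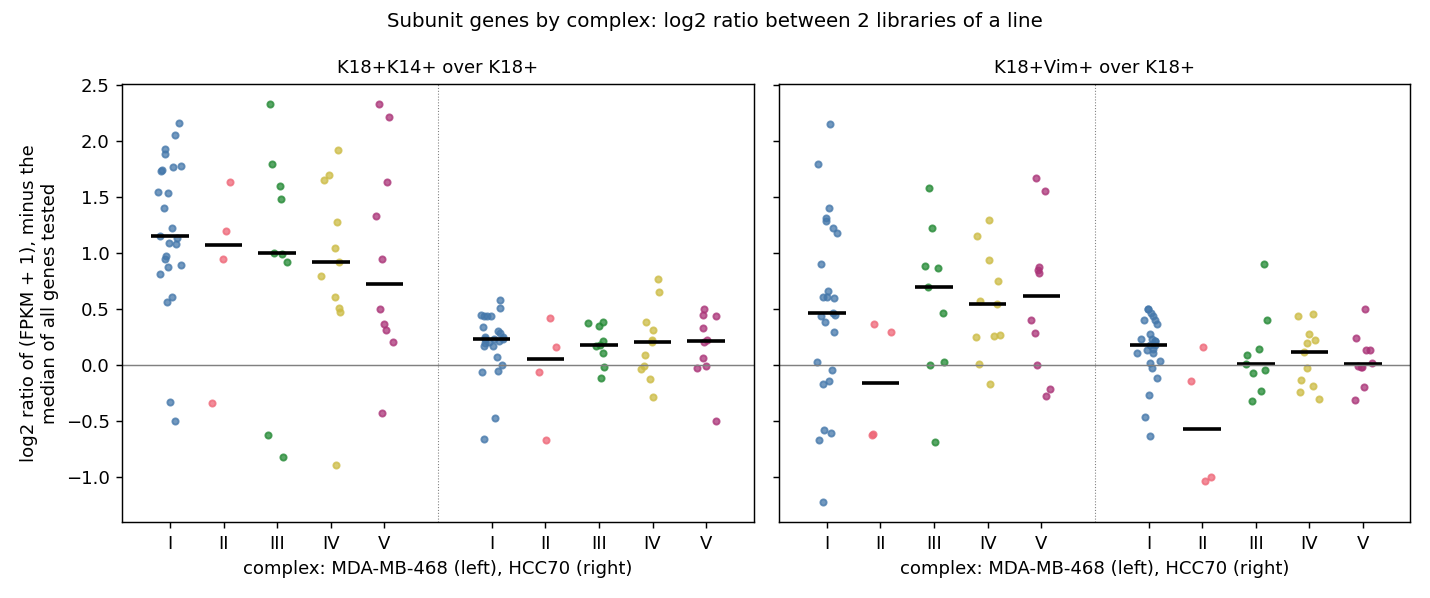
Log2 ratio of K18+K14+ over K18+ (left panel) and K18+Vim+ over K18+ (right panel) for each subunit gene, less the median of all genes tested in the same pair of libraries; points are genes, bars are medians per complex, MDA-MB-468 stands left of HCC70. In the left panel the MDA-MB-468 medians lie between 0.72 and 1.15 and the HCC70 medians between 0.05 and 0.23; the right MDA-MB-468 points rest on the library labelled K18+Vim+.

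Transcript length moved with these ratios. The members are short, with a median annotated length of 930 bases against 2741 bases for all genes tested. Over all genes tested the log2 ratio of K18+K14+ to K18+ was lower for longer transcripts, with a Spearman coefficient of -0.33 in MDA-MB-468 and -0.22 in HCC70 across 12436 genes. Among genes under 1000 bases the median log2 ratio in MDA-MB-468 was 1.17 for the 34 members and 0.67 for all genes. From 1000 to under 2000 bases it was 0.79 for 14 members and 0.12 for all genes, and at 2000 bases or more it was 0.15 for 11 members and -0.33 for all genes. The members' medians thus lay above those of all genes in each length class, and both decreased with length. In MDA-MB-468 the members' relative median was 0.52 after length correction.

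**Figure D4:**
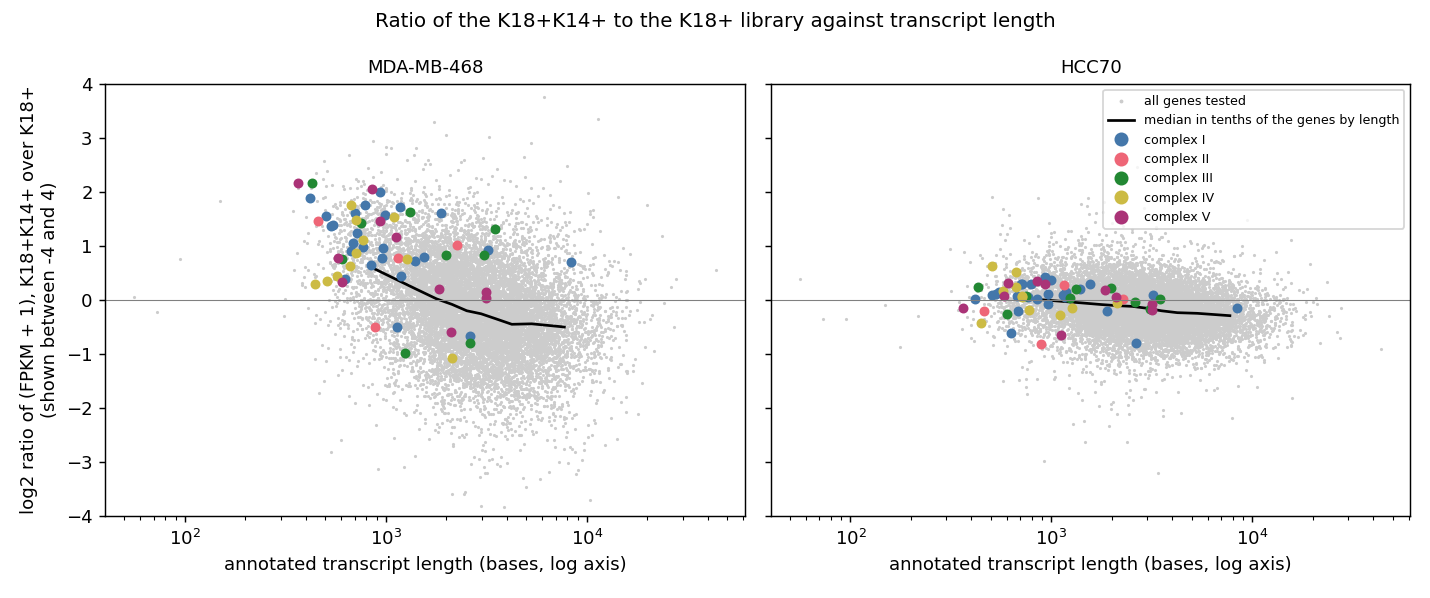
Log2 ratio of K18+K14+ over K18+ against annotated transcript length (log axis) for all genes tested (grey, with the median over successive length classes as a black line) and for the subunit genes (coloured by complex), in MDA-MB-468 (left) and HCC70 (right). The grey cloud slopes down in both lines, more so in MDA-MB-468 (Spearman -0.33 against -0.22 in HCC70), and most coloured points lie at its short end.

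K18+Vim+ cells were set against K18+ cells to find what accompanies vimentin. Subunit genes lay close to their K18+ values in HCC70, and in the K18+Vim+ library labelled as MDA-MB-468 they varied in both directions around a higher median. The median ratio to K18+ was 1.35-fold in that library and 0.968-fold in HCC70. Relative to all genes the median log2 ratio was 0.47 there and 0.12 in HCC70, and the HCC70 value turned to -0.04 with no filter and -0.02 after quantile normalization. Values above K18+ were found for 41 of the 59 in that library (47.8% of all genes tested) and for 23 in HCC70 (34.4%). Both lines gave a higher value for 18 members (16.5% of all genes tested) and a lower one for 13 (33.9%). By limma no member passed the adjusted threshold (0.0% of all genes), and SDHD alone had an unadjusted p under 0.05, as 4.27% of all genes did. Without the HCC70 K18+Vim+ library 1500 genes passed (12.0%), of which 0 were members. That fit rests for K18+Vim+ cells on the 1 library whose SMAD4, RB1 and EGFR values go against its line, assumes that it varies like the other libraries, and takes its spread from the K18+K14+ and K18+ libraries alone, so that its count describes that library.

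Complex II had lower values in K18+Vim+ cells of HCC70 and both signs in the library labelled as MDA-MB-468. In HCC70 all 4 of its genes had lower values than in K18+ cells, with a median of 0.62-fold. Of all genes tested only 34.4% had higher values in that line. SDHB was nearly level there, with a log2 ratio of -0.0044 where the median of all genes tested was -0.16. In the K18+Vim+ library labelled as MDA-MB-468 SDHA and SDHD had lower values, and 47.8% of all genes tested had higher ones. Relative to all genes the complex had a median of -0.57 for HCC70 and -0.16 for the library so labelled. SDHD stood at 41.0 FPKM in that library against 65.5 FPKM in the K18+ library of MDA-MB-468, and at 13.8 against 33.0 FPKM in HCC70, with a fitted log2 difference of -0.93 ± 0.39 (SE, limma adjusted p = 0.863). SDHC stood at 105 against 83.8 FPKM (MDA-MB-468 as labelled) and 40.2 against 91.6 FPKM (HCC70). SDHB, the iron-sulphur subunit, stood at 133 against 111 FPKM in MDA-MB-468 as labelled, and at 155 FPKM in both HCC70 libraries. The anchors were thus the part of complex II that differed most in HCC70.

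In complex I NDUFB8, an accessory subunit of the distal membrane arm, stood at 399 FPKM in the K18+Vim+ library labelled as MDA-MB-468 against 91.4 FPKM in K18+ cells, and at 71.7 against 70.7 FPKM in HCC70. NDUFV2 stood at 123 against 298 FPKM in MDA-MB-468 as labelled and at 111 against 87.4 FPKM in HCC70. NDUFA2, an accessory subunit of the matrix arm, stood at 150 against 111 FPKM (MDA-MB-468 as labelled) and 46.3 against 36.5 FPKM (HCC70). NDUFA2 and the core subunits NDUFS7 and NDUFS8 were among the 10 genes of complex I with higher values in both lines, with log2 ratios of 0.35 to 0.57 in MDA-MB-468 as labelled and 0.28 to 0.34 in HCC70.

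In complex III UQCRQ stood at 758 against 420 FPKM in MDA-MB-468 as labelled and at 478 against 285 FPKM in HCC70, the largest ratio shared by both lines among the members. UQCRFS1 stood at 28.8 against 48.4 FPKM (MDA-MB-468 as labelled) and 25.8 against 34.2 FPKM (HCC70). In complex IV COX7C, a small subunit of the membrane part, stood at 2324 FPKM in the K18+Vim+ library labelled as MDA-MB-468 against 969 FPKM in K18+ cells, and at 426 against 409 FPKM in HCC70. COX4I1, the subunit through which ATP is known to regulate the enzyme, stood at 735 against 749 FPKM (MDA-MB-468 as labelled) and 405 against 560 FPKM (HCC70). COX7C was thus high in 1 library, and COX4I1 low in 1.

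In complex V ATP5ME, the e subunit of the membrane part, stood at 1169 against 376 FPKM in MDA-MB-468 as labelled and at 247 against 234 FPKM in HCC70. ATP5PB, the b subunit of the peripheral stalk, stood at 155 against 194 FPKM (MDA-MB-468 as labelled) and 107 against 137 FPKM (HCC70). ATP5F1C, the gamma subunit that turns within the catalytic head, stood at 365 against 436 FPKM (MDA-MB-468 as labelled) and 441 against 500 FPKM (HCC70). ATP5F1D stood at 136 against 115 FPKM (MDA-MB-468 as labelled) and 79.4 against 62.7 FPKM (HCC70). Stalk subunits of the same enzyme therefore had both signs shared by the lines, none past the threshold. In HCC70 the relative medians of complexes III, IV and V were 0.01, 0.12 and 0.01, and each turned negative in several alternative settings.

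Set against K18+K14+ cells, the K18+Vim+ values were the lower ones for 39 of the 59 members in each line. Each line had 20 of the 59 above the K18+K14+ library (54.1% of all genes tested in MDA-MB-468 as labelled and 47.3% in HCC70). Both lines gave a higher value for 6 members (25.6% of all genes tested) and a lower one for 25 (23.7%). Relative medians were -0.58 for the K18+Vim+ library labelled as MDA-MB-468 and -0.08 in HCC70, and the first was -0.01 after quantile normalization. No member passed the adjusted threshold (0.0% of all genes), and UQCRFS1 alone had an unadjusted p under 0.05, as 5.46% of all genes did. Without the HCC70 K18+Vim+ library 1988 genes passed (16.0%), of which 1 was a member, NDUFV2. This count too compares 1 K18+Vim+ library, the one labelled as MDA-MB-468, with a spread from the other populations only. All 4 genes of complex II had lower values in K18+Vim+ cells of both lines.

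The members that stood out were mostly apart in MDA-MB-468 as labelled. NDUFV2 stood at 123 FPKM in the K18+Vim+ library labelled as MDA-MB-468 against 1192 FPKM in the K18+K14+ library, and at 111 against 118 FPKM in HCC70. SDHC stood at 105 against 234 FPKM (MDA-MB-468 as labelled) and 40.2 against 79.3 FPKM (HCC70), which was the largest ratio shared by both lines. COX4I1 stood at 735 against 2093 FPKM (MDA-MB-468 as labelled) and 405 against 581 FPKM (HCC70), COX6B1 at 851 against 3314 FPKM (MDA-MB-468 as labelled) and 513 against 598 FPKM (HCC70). NDUFB8 was the reverse, at 399 against 191 FPKM in MDA-MB-468 as labelled and at 71.7 against 61.2 FPKM in HCC70. UQCRB, the ubiquinone-binding subunit of complex III, stood at 491 against 298 FPKM (MDA-MB-468 as labelled) and 195 against 176 FPKM (HCC70). NDUFA4 stood at 407 against 166 FPKM in MDA-MB-468 as labelled and at 218 against 278 FPKM in HCC70, so that its order was opposite in the lines.

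Between the lines, unlike between the populations, members passed the test. By limma 10 of the 59 genes were higher in MDA-MB-468 than in HCC70 and 0 were lower, against 4.54% of all genes tested that were higher and 7.68% that were lower (12.2% in all). The fitted difference was above 0 for 54 of the 59, and the median was 1.08 relative to all genes, 0.68 after length correction and 0.77 after quantile normalization. Per population the relative median was 1.62 between the K18+K14+ libraries, 0.99 between the K18+Vim+ libraries as labelled and 0.58 between the K18+ libraries. Complex V had the highest fitted relative median with 1.42, followed by complex I with 1.08, complex IV with 1.03, complex III with 0.80 and complex II with 0.51. Of the 10 genes 6 belong to complex I, 1 to complex IV and 3 to complex V. After length correction 7 of the 10 passed, 5 of complex I and 2 of complex V, against 4.17% of all genes higher and 7.04% lower (11.2% in all). NDUFS5, COX7C and ATP5PD no longer passed, with limma adjusted p of 0.0689, 0.0770 and 0.0668.

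The 6 of complex I were NDUFA1, NDUFA2, NDUFB11, NDUFC2, NDUFS3 and NDUFS5, the last lost after length correction. NDUFA1, a small membrane subunit, stood at 505, 393 and 255 FPKM in MDA-MB-468 K18+K14+, labelled K18+Vim+ and K18+ cells, against 75.9, 86.5 and 73.1 FPKM in HCC70. It had the largest fitted log2 difference of the members, 2.23 ± 0.37 (SE, n = 3 libraries per line, limma adjusted p = 0.0198). NDUFS3, a core subunit of the module that reduces ubiquinone, stood at 518, 299 and 302 FPKM in MDA-MB-468, against 117, 95.8 and 109 FPKM in HCC70 (fitted difference 1.74 ± 0.35, limma adjusted p = 0.0318). NDUFB11, an accessory membrane subunit, stood at 191, 140 and 57.1 FPKM in MDA-MB-468, against 31.9, 30.3 and 30.6 FPKM in HCC70. NDUFC2, another accessory membrane subunit, stood at 1465, 312 and 482 FPKM in MDA-MB-468, against 121, 127 and 141 FPKM in HCC70. It shares exons with the readthrough gene NDUFC2-KCTD14, which was listed at 6.76 FPKM in the K18+ library of MDA-MB-468 and at no more than 0.341 FPKM elsewhere, so that its value there is uncertain to that extent.

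In complex V ATP5PO, the subunit OSCP that ties the peripheral stalk to the catalytic head, stood at 1228, 778 and 444 FPKM in MDA-MB-468 K18+K14+, labelled K18+Vim+ and K18+ cells, against 205, 164 and 167 FPKM in HCC70 (fitted difference 2.07 ± 0.40, limma adjusted p = 0.0291). ATP5PD, the d subunit of the same stalk, stood at 612, 347 and 357 FPKM in MDA-MB-468, against 151, 103 and 143 FPKM in HCC70. ATP5MC3, described above, had a fitted difference of 1.45 ± 0.36 (limma adjusted p = 0.0499). ATP5ME stood at 1686, 1169 and 376 FPKM in MDA-MB-468, against 211, 247 and 234 FPKM in HCC70, and did not pass (limma adjusted p = 0.0564). In complex IV COX7C passed, at 1499, 2324 and 969 FPKM in MDA-MB-468 against 482, 426 and 409 FPKM in HCC70 (fitted difference 1.77 ± 0.42, limma adjusted p = 0.0447), and after length correction its fitted difference was 1.24 (limma adjusted p = 0.0770). For each of these 5 genes all MDA-MB-468 libraries lay above all HCC70 ones, as for 37 of the 59 members and 20.1% of all genes tested. The 5 were named for such non-overlap or for passing the test, so this is not separate support.

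Members at the other end were found in complexes I and III. CYC1 stood at 32.3, 88.0 and 65.1 FPKM in MDA-MB-468 K18+K14+, labelled K18+Vim+ and K18+ cells, against 118, 109 and 115 FPKM in HCC70. UQCRC2 stood at 52.9, 146 and 92.5 FPKM in MDA-MB-468, against 184, 134 and 189 FPKM in HCC70. NDUFB5, an accessory subunit of the membrane arm, stood at 57.8, 72.5 and 82.5 FPKM in MDA-MB-468, against 125, 122 and 118 FPKM in HCC70. All 3 had a negative fitted difference, and none passed with all 6 libraries. Within complex III CYC1 and UQCRC2 thus lay opposite to UQCR11. UQCR11 stood at 431, 247 and 139 FPKM in MDA-MB-468 against 91.7, 94.2 and 79.6 FPKM in HCC70. UQCRC1 also lay on the higher side, at 237, 129 and 132 FPKM in MDA-MB-468 against 86.5, 62.4 and 73.7 FPKM in HCC70. Of the 9 genes of the complex 7 had a fitted difference above 0.

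The calls between the lines depended on the libraries. Without the K18+Vim+ library labelled as MDA-MB-468 15 members were higher and 2 lower, against 11.5% and 15.4% of all genes. CYC1 and UQCRC2 were the 2 lower ones, with fitted differences of -1.33 (limma adjusted p = 0.0415) and -1.40 (limma adjusted p = 0.0355). NDUFV1, NDUFV2, SDHD, UQCR11, COX7A2 and ATP5F1D were added to the higher ones, COX7C was lost, and 9 were shared with the fit to all 6 libraries. Without the HCC70 K18+Vim+ library 16 of the 59 members passed, about the share of all genes that did (27.0%). With either K18+Vim+ library out, the remaining one has no counterpart, and difference and spread come from the 4 other libraries. Leaving out any 1 of the K18+K14+ or K18+ libraries of either line left 0 or 1 member. In those fits 206 to 326 of the 12454 genes tested passed. With no filter on low genes 0 genes and 0 members passed. With the K18+Vim+ library labelled as MDA-MB-468 left out, the libraries of the lines did not overlap for 38 members that were higher (28.0% of all genes) and 3 that were lower (28.0% of all genes). With all 6 libraries these counts were 37 (20.1%) and 2 (21.0%).

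**Figure D5:**
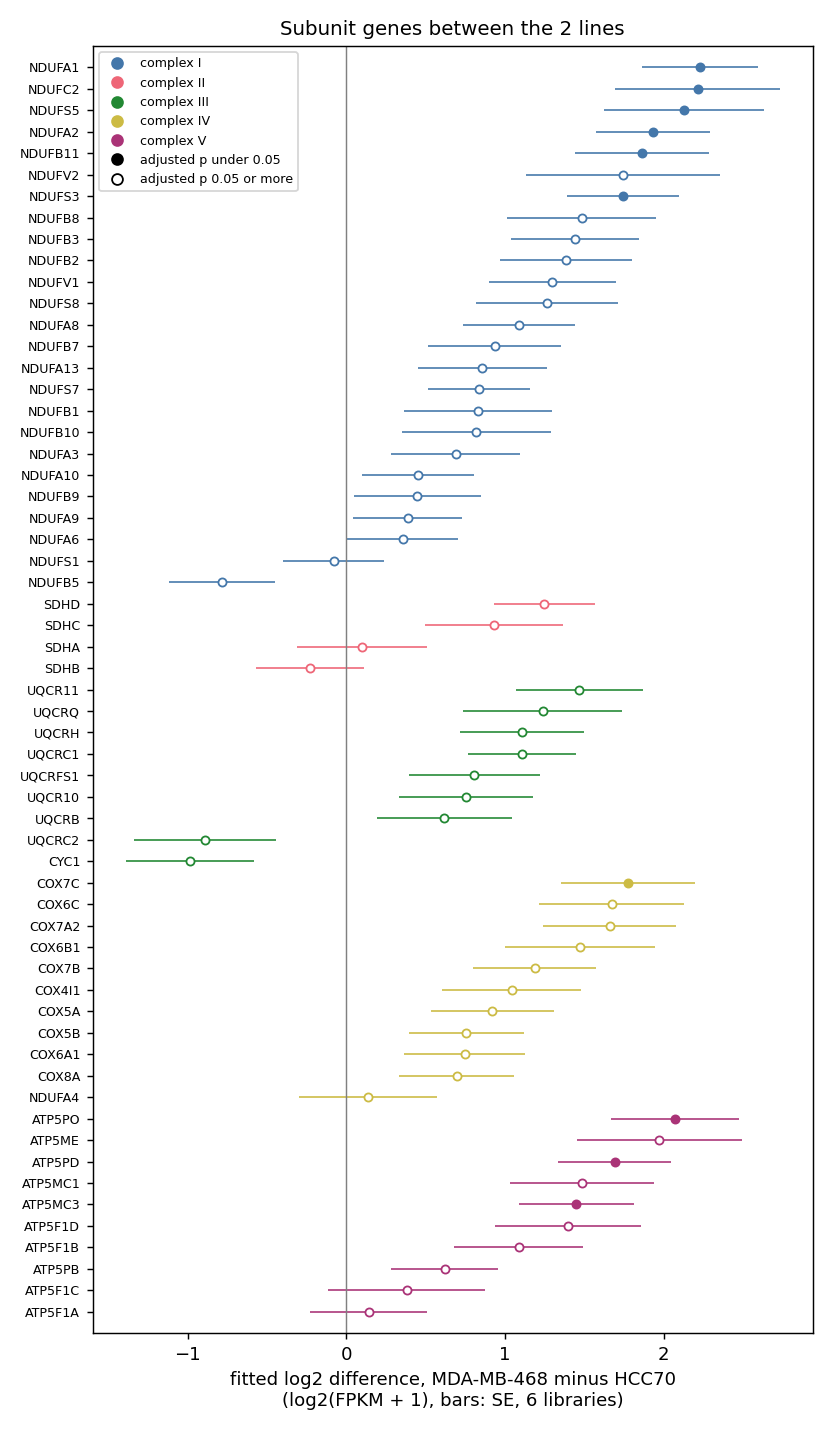
Fitted log2 difference on the log2(FPKM + 1) scale, MDA-MB-468 minus HCC70, for the 59 subunit genes by complex, from limma on 6 libraries; bars are SE, and filled points have an adjusted p under 0.05. The 10 filled points lie between 1.45 and 2.23, and NDUFB5, UQCRC2 and CYC1 lie lowest.

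Named pseudogenes of the same gene exist in the GENCODE annotation for 35 of the 59 members, with 17 for COX6C, the most. How the authors' counting treated reads shared with such copies is unknown here, and values of those genes are uncertain to that extent. Of the 10 genes that passed between the lines, NDUFB11, NDUFS5, COX7C and ATP5PD have such copies.

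Other genes of the pathway were counted in the same way for K18+K14+ against K18+ cells. Of all genes tested 20.2% had higher values in both lines and 43.7% lower, against which these counts are to be read. Of 25 further subunit genes tested, 11 had higher values in both lines and 5 lower. NDUFA5, an accessory subunit of complex I, was among the lower ones with log2 ratios of -1.27 in MDA-MB-468 and -0.82 in HCC70. Of 51 assembly factors 11 had higher values in both lines and 18 lower. UQCC3, an assembly factor of complex III, had log2 ratios of 1.56 in MDA-MB-468 and 0.64 in HCC70, and NUBPL, which serves iron-sulphur assembly of complex I, of -0.99 in MDA-MB-468 and -0.66 in HCC70. Of 18 genes of the citric acid cycle and pyruvate dehydrogenase 2 had higher values in both lines and 10 lower ones, with DLD, the shared dehydrogenase subunit, at -1.22 in MDA-MB-468 and -0.59 in HCC70. Of 17 regulators and genes of mitochondrial DNA expression 1 was higher in both and 10 lower. That 1 was POLRMT, the mitochondrial RNA polymerase, with log2 ratios of 1.79 in MDA-MB-468 and 0.45 in HCC70. Of 14 genes of electron carriers and their supply 2 were higher in both and 6 lower, among them GPD2, the glycerol phosphate dehydrogenase, at -0.76 in MDA-MB-468 and -1.19 in HCC70. None of these genes passed the adjusted threshold.

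In K18+Vim+ against K18+ cells 16.5% of all genes tested were higher in both lines and 33.9% lower. Of the 25 further subunits 8 were higher in both and 2 lower, and of the 51 assembly factors 11 and 7. The citric acid cycle list gave 0 higher and 7 lower of 18. For regulators it was 2 and 5 of 17, and for electron carriers 3 and 6 of 14. PDHX, a component of pyruvate dehydrogenase, had log2 ratios of -1.39 in MDA-MB-468 as labelled and -1.07 in HCC70. LYRM7, an assembly factor for the Rieske protein, had 1.24 in MDA-MB-468 as labelled and 1.09 in HCC70. POLRMT had 1.35 in MDA-MB-468 as labelled and 0.99 in HCC70. No gene of the lists passed in this comparison.

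Between the lines 8 of the 125 genes tested in these lists were higher in MDA-MB-468 by limma (6.4%, against 4.54% of all genes tested) and 1 was lower (0.8%, against 7.68%). After length correction 5 of the 8 and the lower gene passed, and NDUFAF2, NDUFAF8 and COA6 did not. Among further subunits ATP5PF, which sits in the same peripheral stalk as ATP5PO and ATP5PD, stood at 449, 364 and 286 FPKM in MDA-MB-468 K18+K14+, labelled K18+Vim+ and K18+ cells, against 78.5, 71.5 and 84.1 FPKM in HCC70 (limma adjusted p = 0.0195). NDUFV3, an accessory subunit at the NADH end of complex I, was also higher (limma adjusted p = 0.0385). The assembly factors NDUFAF2, NDUFAF4 and NDUFAF8 of complex I and COA6 of complex IV were higher, with NDUFAF4 at 94.8, 76.3 and 46.5 FPKM in MDA-MB-468, against 9.22, 10.9 and 9.36 FPKM in HCC70. COQ3, an enzyme of ubiquinone synthesis, and PDHX were the other 2 higher ones. The lower gene was NDUFA4L2, a paralogue of NDUFA4 known as a hypoxia-responsive gene, at 0.676, 1.55 and 5.05 FPKM in MDA-MB-468, against 24.9, 34.7 and 23.7 FPKM in HCC70 (fitted difference -3.26 ± 0.45, limma adjusted p = 0.0144). NDUFA4 itself stood at 166, 407 and 348 FPKM in MDA-MB-468, against 278, 218 and 289 FPKM in HCC70, and did not pass (limma adjusted p = 0.841).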

How the data were processed

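RNA sequencing values of 6 sorted libraries were analysed, 3 populations of each of the lines MDA-MB-468 and HCC70. The values are FPKM by Entrez Gene ID, computed and deposited by the authors; TopHat2 and the build GRCh37 are named in the submitters' processing notes. The sources used here give no aligner version, counting tool, annotation or read total. Depth is therefore unknown, and no interval for counting error is printed. After 7 rows with blanks were dropped and 5 duplicated IDs reduced to their row of higher mean, 18795 genes remained. Members were matched by Entrez Gene ID through RefSeq symbols and synonyms.

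The 12454 genes whose mean reached 1 FPKM were analysed as log2(FPKM + 1), a scale that understates differences of low genes, by limma 3.58.1 under R 4.3.3, with lmFit and a trended eBayes. Population and cell line were terms, all 6 libraries entered, and 2 residual degrees of freedom remained. Line is the pairing that the labels give, since each line gave 1 library per population. P-values were adjusted by Benjamini-Hochberg over all genes tested, with a threshold of 0.05. The fit was tested on simulated data. Ratios of 2 libraries carry no test. Values called relative are less the median of all genes tested in the same comparison.

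Members and gene lists were chosen with earlier results of these data known. UQCR11 was printed and compared for its motif matches, outside the rules that follow. Named by rule were the members highest and lowest in each complex, by mean level and by mean ratio of both lines, up to 5 members per direction that shared a sign in both lines or whose libraries of the lines did not overlap, members past the threshold, and up to 2 genes per list. Alternatives were a minimum of 5 FPKM or no filter, pseudocounts 0.1 or 5, quantile normalization, a correction for transcript length, limma without trend, no block for line, and each library left out in turn. Leaving out both K18+Vim+ libraries was added after the data were seen. Other software was pandas 2.3.3, numpy 2.4.6 and matplotlib 3.10.9 under Python 3.11.15.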

Additional observations from a re-analysis of the deposited data

Results flagged for a closer look

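Several values had opposite signs in the lines, as log2 ratios of single libraries. These differences were not tested. Between K18+K14+ and K18+ cells SDHC had 1.47 in MDA-MB-468 and -0.21 in HCC70. CYC1 had -0.99 in MDA-MB-468 and 0.031 in HCC70, and ATP5F1A had -0.60 in MDA-MB-468 and 0.055 in HCC70. The median of complex II was 0.90 in MDA-MB-468 and -0.10 in HCC70, before the median of all genes was taken off. Between K18+Vim+ and K18+ cells NDUFV2 had -1.27 in the K18+Vim+ library labelled as MDA-MB-468 and 0.34 in HCC70, and SDHB had 0.26 there and -0.0044 in HCC70. The medians of complexes III, IV and V were 0.66, 0.50 and 0.57 in that library and -0.15, -0.047 and -0.16 in HCC70. The median of all 59 genes was 0.43 there and -0.047 in HCC70. Several of the HCC70 values are close to 0, so that the sign carries little, and the MDA-MB-468 side of the last comparison rests on the library whose SMAD4, RB1 and EGFR values go against its line.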

How the results depend on the processing

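Between the lines no filter left 0 genes and 0 members past the threshold. Leaving out both K18+Vim+ libraries gave 3366 of the 12454 genes tested and 17 of the 59 members. Without the replicate block for cell line 1875 genes and 15 members passed between the lines, and no call between populations changed. Leaving out 1 library gave 0 to 1 genes for K18+K14+ against K18+, 0 to 1500 for K18+Vim+ against K18+, 0 to 1988 for K18+Vim+ against K18+K14+, and 206 to 3360 for the lines, with 0 to 17 members in the lines; the members' relative fitted median ranged from 0.31 to 0.96, 0.035 to 0.66, -0.69 to -0.0024, and 0.75 to 1.33. Quantile normalization gave relative medians of all members of 0.29 for MDA-MB-468 K18+K14+ over K18+, -0.0066 for the K18+Vim+ library labelled as MDA-MB-468 over K18+K14+, and -0.025 for HCC70 K18+Vim+ over K18+, which was -0.043 with no filter.

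Complex medians changed sign as follows. For HCC70 K18+K14+ over K18+ complex II was -0.088 with no filter, -0.11 after quantile normalization and -0.078 after length correction, and for MDA-MB-468 complex V was -0.10 after quantile normalization. For HCC70 K18+Vim+ over K18+ complex III was -0.049 with a pseudocount of 5, -0.15 with no filter, -0.15 after quantile normalization and -0.12 after length correction. Complex IV was -0.043 with no filter, -0.015 after quantile normalization and -0.029 after length correction. Complex V was -0.046, -0.15, -0.084 and -0.034 in the order given for complex III. For K18+Vim+ over K18+K14+ complex I in HCC70 was -0.0016 with no filter. For the K18+Vim+ library labelled as MDA-MB-468 complex IV was 0.38 after quantile normalization and 0.29 after length correction, and complex V was 0.043 after quantile normalization. The cause was not tested.

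Named members that changed sign when 1 library was left out had these ranges of the fitted difference. For K18+K14+ against K18+ they were ATP5F1A -0.70 to 0.15, CYC1 -1.12 to 0.16, NDUFA4 -1.22 to 0.10, SDHC -0.16 to 1.42 and UQCRC2 -1.08 to 0.25. For K18+Vim+ against K18+ they were ATP5F1C -0.71 to 0.27, ATP5F1D -0.18 to 0.76, ATP5ME -0.11 to 1.82, COX4I1 -0.71 to 0.22, NDUFS8 -0.051 to 0.70, NDUFV2 -1.66 to 0.73 and SDHB -0.064 to 0.32. For K18+Vim+ against K18+K14+ they were COX7B -0.10 to 0.59, NDUFA3 -0.17 to 0.43, NDUFA4 -0.19 to 1.13, NDUFA8 -0.10 to 0.69, NDUFB8 -0.091 to 1.38 and UQCRB -0.10 to 0.97. With 1 library per population and line, unknown depth and 2 residual degrees of freedom, small differences between populations could not be resolved.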

Other observations

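COXFA4L3, a second paralogue of NDUFA4 that is on none of the lists and was chosen after its values were seen, stood at 0.365, 0.446 and 0.737 FPKM in the MDA-MB-468 libraries (K18+K14+, labelled K18+Vim+, K18+), against 8.99, 27.8 and 14.6 FPKM in HCC70.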
